A study of Homo sapiens with 24 samples.

Results

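Integrins are the membrane receptors with which cells hold on to extracellular matrix, and 10 of their subunit genes were followed across the 8 groups of the study: ITGA2, ITGA3, ITGA5, ITGA6, ITGAV, ITGB1, ITGB3, ITGB4, ITGB6 and ITGB8. They were taken by gene symbol as the alpha and beta subunits of epithelial and matrix adhesion, and each of the 10 was found among the 35993 symbols of the gene count table. The measurement was bulk RNA sequencing of total RNA from J82 and RT-112, both established human bladder cancer cell lines. Each line was present as the parental culture, whose label for CD44 reads Control, and as 3 derived lines named CD44 Low, CD44 High and CD44v6, for low CD44, high CD44 and high CD44v6 receptor expression, with 3 libraries per group described as biological replicates. How the derived lines were made, and whether any of them is a single clone, is not given in the sources used here. The series addresses how bladder cancer cells with different amounts of CD44, a receptor for hyaluronan, and of its variant v6 differ.

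An integrin is a pair of 1 alpha and 1 beta chain, and the pairing sets the ligand. ITGA3 and ITGA6 are the alpha chains of laminin receptors: both pair with ITGB1, and ITGA6 also pairs with ITGB4, the long-tailed beta chain that ties basal epithelial cells to their basement membrane through hemidesmosomes. With ITGB1, ITGA2 makes a collagen receptor and ITGA5 the classical fibronectin receptor. ITGAV pairs with several beta chains, among them ITGB3, a vitronectin receptor chain, and ITGB6 and ITGB8, which release active TGF-beta from its latent complex. In the normal urothelium, the lining of the bladder, the laminin receptors of the basal layer anchor the tissue.

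Total counts per library ranged from 16752825 to 24419670. Levels are given as CPM, a gene's count relative to the total of its library on the usual scale, after trimmed-mean scaling over the 24 libraries, and n is 3 libraries wherever a mean ± SD is printed. CD44 itself stood at 258 to 304 CPM in J82 CD44 Low and 636 to 1069 in J82 CD44 High and CD44v6, and at 119 to 150.3 in RT-112 CD44 Low and 341 to 512 in the corresponding RT-112 groups; the gene count does not show the v6 variant. Parental libraries held 399 to 492 CPM of CD44 in J82, between the derived groups, and 293 to 348 in RT-112, where they overlapped CD44 High. CD44 was called above parental in J82 CD44 High and CD44v6 but not in RT-112 CD44 High (adjusted p = 0.272) or CD44v6 (adjusted p = 0.163), whereas CD44 Low was called below parental in both lines. RT-112 held several urothelial and epithelial markers at high level (CDH1 283 to 371 CPM, UPK1B 339 to 699.96, KRT5 328 to 798). Others were lower in that line, with GATA3 at 30.3 to 46.4 CPM, UPK2 at 2.65 to 6.33 and UPK3A at 0. J82 held cytokeratin transcripts (KRT18 1379 to 2008 CPM) but UPK2, UPK3A and KRT5 at 0 and CDH1 at 0.484 to 6.57 CPM, with VIM at 208 to 629.6 CPM against 0 to 2.52 in RT-112. Transcripts of PTPRC and CD3E, leukocyte markers, did not pass 0.156 CPM in any library, and CD14 reached 1.65 CPM in J82. CD68, a lysosomal protein on the same list, held 75.7 to 222 CPM in J82 and 7.002 to 13.3 in RT-112.

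Levels of different genes can be compared only per length, so CPM was divided by the length of the merged exons in kb. On that scale ITGB1 was first of the 10 in every group, from 87.9 CPM per kb in J82 CD44 Low to 167 in RT-112 CD44 High. As a share of all beta subunits per kb, ITGB1 made up 75.0 to 83.3% over the 12 J82 libraries and 59.3 to 64.0% over the 12 RT-112 libraries. The rest of the beta chains differed by line: in J82 it was mainly ITGB5 (14.6 to 21.4%), a beta chain of ITGAV that is not among the 10, with ITGB3 at 1.21 to 3.77%, whereas RT-112 added ITGB4 (9.92 to 24.3%) and ITGB6 (6.93 to 17.8%) to an ITGB5 share of 7.62 to 10.3%.

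Among alpha subunits the leading laminin receptor chain was a different one in each line. ITGA3 gave 48.3 to 57.3% of the alpha transcripts per kb in J82 and ITGA6 14.8 to 19.3%, below ITGAV in the mean of every group (ITGAV 16.01 to 30.6%). In RT-112 the places were exchanged, with ITGA6 at 39.1 to 61.6% and ITGA3 at 14.2 to 20.5%, and ITGAV at 6.66 to 19.1%. ITGA2 made up 1.25 to 1.60% of the alpha transcripts in the J82 CD44 Low libraries and 6.51 to 8.22% in those of CD44v6, while in RT-112 it made up between 10.6 and 20.2%. Dividing by the longest coding transcript instead kept ITGB1 first in every group, but it changed 19 of the 80 ranks of a gene within a group. The merged exons of ITGA3 span 9.80 kb and its longest coding transcript 4.89 kb, and with the latter its share was 61.0 to 69.4% in J82 and 22.6 to 31.3% in RT-112.

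**Figure D1:**
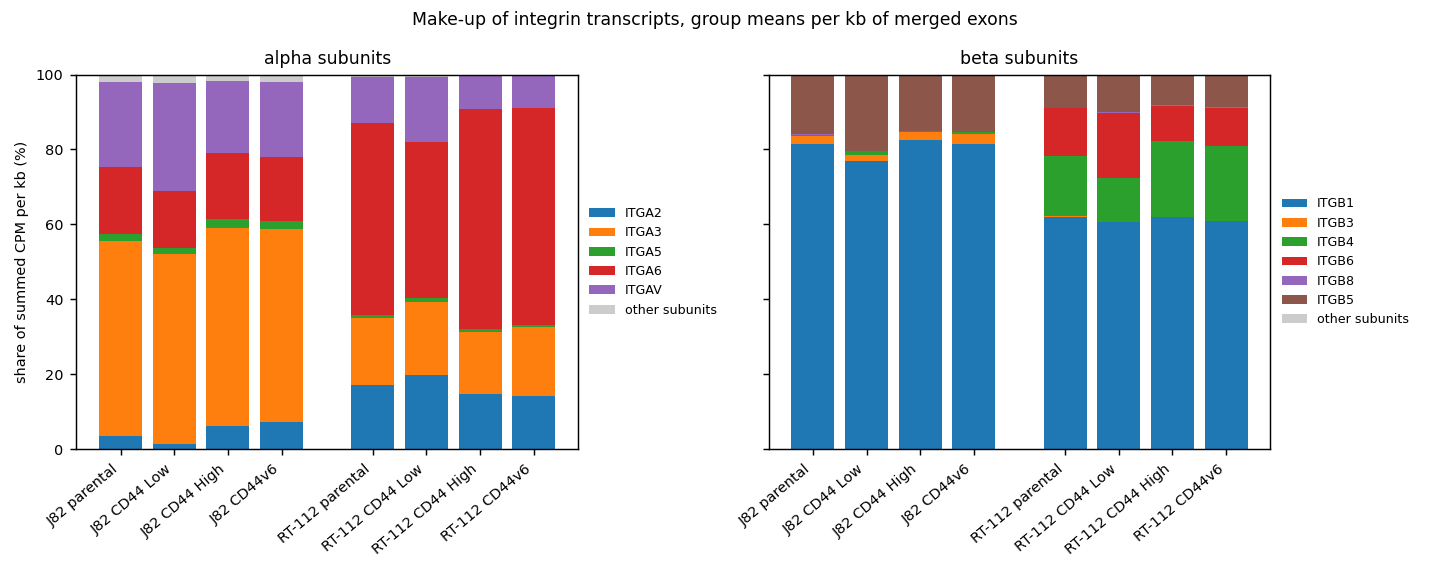
Stacked bars give the percent share of each alpha subunit (left) and beta subunit (right) in the summed CPM per kb of merged exons, from the mean of 3 libraries per group. The largest shares are those of ITGA3 and ITGB1 in J82 and of ITGA6 and ITGB1 in RT-112. In RT-112, ITGB4, ITGB5 and ITGB6 make up nearly all of the other beta share.

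The parental cultures of the 2 lines differed in 9 of the 10 genes, where 62% of the 17438 genes tested differed. A gene is called here, and in every comparison that follows, where edgeR's quasi-likelihood test gives a Benjamini-Hochberg adjusted p under 0.05 over all genes tested. Parental J82 was higher in ITGA3 (625 ± 37.3 against 328 ± 12.7 CPM), ITGA5 (17.0 ± 0.737 against 11.8 ± 1.06) and ITGB3. It was lower in ITGA2 (35.1 ± 5.15 against 257 ± 30.2), ITGA6 (143 ± 12.1 against 630.4 ± 28.7), ITGB1, ITGB4 (2.76 ± 0.729 against 274 ± 19.9), ITGB6 and ITGB8 (1.12 ± 0.405 against 7.34 ± 1.12). No library of one parental group entered the range of the other in those 9, and the share of all genes for which this holds was not counted. ITGAV, at 227 ± 24.5 and 188 ± 15.6 CPM, was the gene not called (log2 fold change 0.27 ± 0.171 SE, adjusted p = 0.172), and it was called when only the parental libraries were fitted (adjusted p = 0.00665).

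A pair of beta chains was all but private to a line. ITGB6 had 0 counts in all 12 J82 libraries and 1487 to 5050 counts in each RT-112 library. Against a floor of 3 counts over the 3 J82 libraries of a group, RT-112 was at least 2957-fold higher in the parental group and at least 2316-fold higher in CD44v6, the group with the smallest bound. ITGB3 had 110 to 443 counts in each J82 library and 0 to 10 in RT-112. The RT-112 counts were 0, 3 and 0 in parental, 10, 0 and 3 in CD44 Low and 0, 0 and 3 in CD44 High, so single libraries held most of them. In CD44v6 RT-112 had no count, and J82 was at least 398-fold higher. Such floors cover counting error only. For differences between groups of a line, ITGB6 was therefore tested in RT-112 alone and ITGB3 in J82 alone, which leaves 9 tested members per line.

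**Figure D2:**
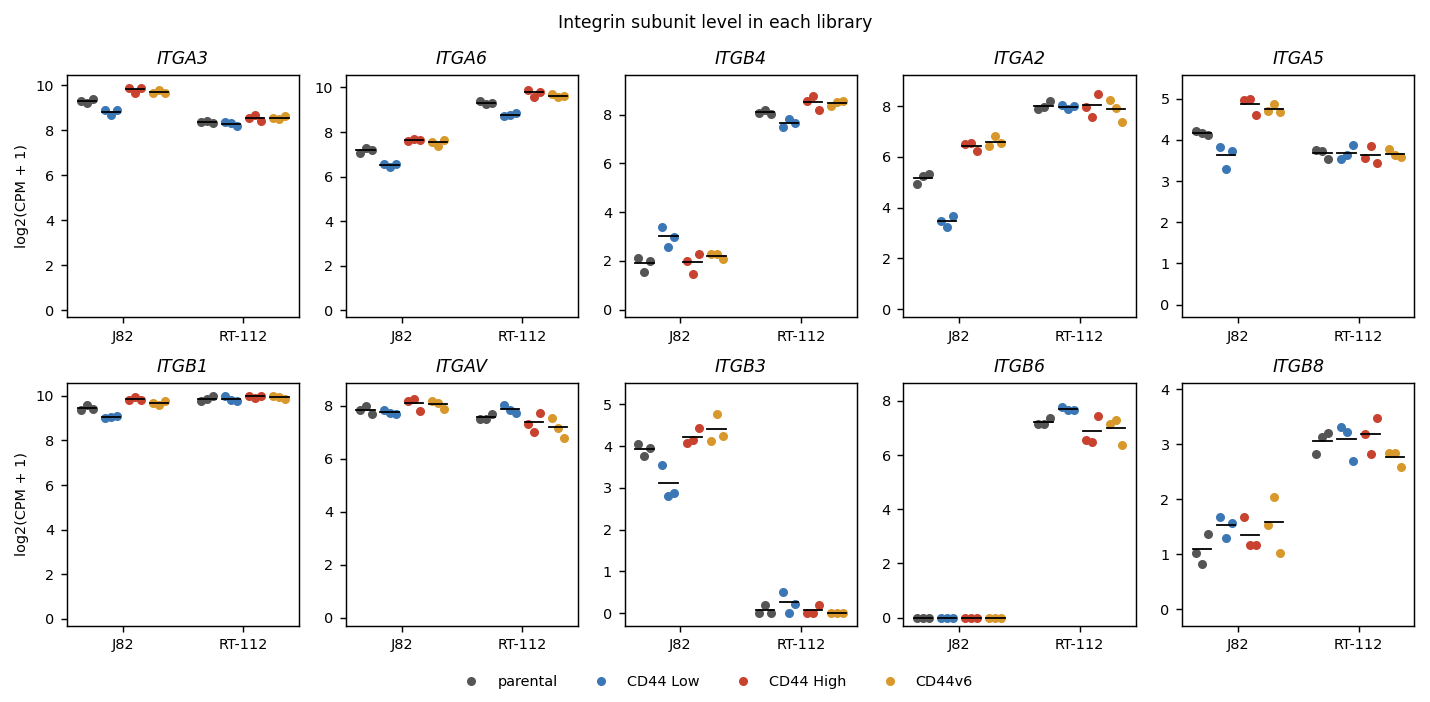
Each point is 1 library, on a log2(CPM + 1) axis, for the 10 subunits in the 4 groups of J82 and of RT-112, and the black line is the group's mean CPM on the same scale. ITGB6 lies at 0 in J82 and ITGB3 near 0 in RT-112, while ITGA2 spreads widely over the J82 groups.

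In J82, most of the tested subunits differed between CD44 Low and the CD44 High and CD44v6 groups, while ITGAV and ITGB8 were called in no comparison. Between CD44 High and CD44 Low, 7 of the 9 tested members were called, 6 higher in CD44 High (ITGA2, ITGA3, ITGA5, ITGA6, ITGB1, ITGB3) and 1 lower (ITGB4), where 15.7% of all genes tested were called. For CD44v6 against CD44 Low it was 6 of 9, the same 6 genes higher, where 9.58% of all genes were called. Against the parental culture, CD44 Low had 5 of 9 called (background 5.34%), with ITGB4 higher and ITGA2, ITGA3, ITGA6 and ITGB1 lower. CD44 High had 5 of 9 called against parental (background 2.94%), namely ITGA2, ITGA3, ITGA5, ITGA6 and ITGB1, each higher. CD44v6 had 2 of 9 (background 2.6%), ITGA2 and ITGA3, both higher. These comparisons share libraries, so the counts are not independent of each other.

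RT-112 showed fewer called members. Between CD44 High and CD44 Low 4 of 9 were called, where 16% of all genes were: ITGA3, ITGA6 and ITGB4 higher and ITGB6 lower in CD44 High. CD44v6 against CD44 Low also gave 4 of 9, again at a background of 16%, with ITGA3, ITGA6 and ITGB4 higher and ITGAV lower. Against parental, CD44 Low had 1 of 9 (ITGA6 lower, background 3.2%), CD44 High 1 of 9 (ITGA6 higher, background 0.511%) and CD44v6 0 of 9 by edgeR and 1 of 9 by DESeq2 (background 0.614% by edgeR). In that last comparison 3 of the 9 members had an unadjusted p under 0.05, namely ITGA3, ITGA6 and ITGB4, where 2389 of all 15645 genes did.

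CD44v6 and CD44 High were not told apart by any member in either line. The background was 0% in both, since edgeR called 0 of 15951 genes in J82 (1536 at an unadjusted p under 0.05; 74 by DESeq2) and 0 of 15645 in RT-112 (665 unadjusted; 2 by DESeq2). In J82, ITGB1 alone of the members had an unadjusted p under 0.05 (813 ± 55.2 against 924 ± 58.4 CPM; log2 fold change -0.18, 95% interval -0.36 to -0.01, adjusted p = 0.517). For ITGA2, the member that moved most, the interval of the CD44v6 to CD44 High difference ran from -0.15 to 0.48 in J82 and from -0.66 to 0.27 in RT-112. In RT-112 it was ITGB8 that had an unadjusted p under 0.05 (log2 fold change -0.51, interval -0.98 to -0.04, adjusted p = 1).

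**Figure D3:**
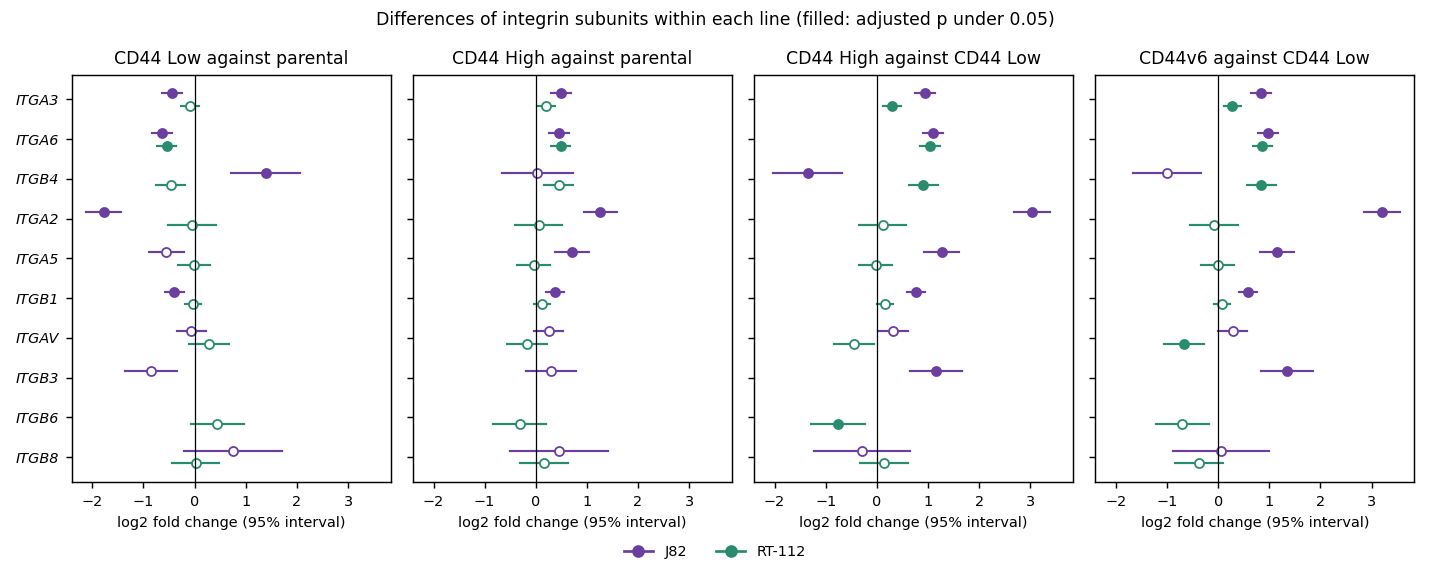
Points are log2 fold changes with 95% intervals for 4 comparisons within J82 and RT-112, and filled points have an adjusted p under 0.05. ITGA6 lies to the same side of 0 in both lines in every panel, while ITGA2 leaves 0 in J82 only and ITGB4 lies on opposite sides in 3 panels.

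The laminin receptor chain ITGA6 was lowest in CD44 Low and highest in CD44 High and CD44v6 in both lines. In J82 it stood at 131, 155 and 144 CPM in the parental libraries, at 93.3, 84.6 and 94.6 in CD44 Low, at 195, 208 and 196 in CD44 High and at 188, 165 and 201 in CD44v6. All CD44 Low libraries were below, and all CD44 High and CD44v6 libraries above, the parental range. In RT-112 the same groups held 661, 605 and 625, then 420.4, 427 and 465, then 959, 771 and 895, and last 832, 752 and 792 CPM, again with no overlap with the parental libraries. CD44 High exceeded CD44 Low 2.14-fold in J82 (log2 fold change 1.10 ± 0.0904 SE, adjusted p = 4.58e-06) and 2.05-fold in RT-112 (1.03 ± 0.0886, adjusted p = 4.36e-05).

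ITGA6 was also the one member called in CD44 Low against parental in both lines, with log2 fold changes of -0.64 ± 0.0899 (adjusted p = 0.00133) for J82 and -0.55 ± 0.0879 (adjusted p = 0.00603) for RT-112. Both calls held without any 1 library. The rise of ITGA6 over parental in CD44 High was 0.46 ± 0.0892 (adjusted p = 0.0157) for J82 and 0.49 ± 0.0878 (adjusted p = 0.0315) for RT-112. In J82 that call was lost without parental replicate 1, parental replicate 3 or CD44 High replicate 2 (adjusted p up to 0.109). In RT-112 it was lost without any parental replicate or CD44 High replicate 1 (up to 0.209), and when only the 2 groups were fitted (0.146). The ITGA6 difference between the lines in the CD44 High to CD44 Low change was 0.09 (95% interval -0.15 to 0.34, adjusted p = 0.717). ITGA6-AS1, an antisense gene that overlaps its exons, had at most 9 counts in a library.

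Promoter sequence is shown for ITGA6, which rose in CD44 High over CD44 Low in both lines, and for ITGA2, which had the largest change and rose in J82 only. ITGA3 was also called higher in both lines, but no promoter window was available for it. The windows are RefSeq sequence of build GRCh38.p14, from 250 bases before to 50 after an annotated start, 5′ to 3′ on the strand of the gene, which is plus for both. The deposited counts were made on another build, GRCh37, so the coordinates belong to the windows alone. Capitals mark GGGCGG, a binding motif of SP1, searched on both strands.
ITGA2, chr5:52989102-52989401: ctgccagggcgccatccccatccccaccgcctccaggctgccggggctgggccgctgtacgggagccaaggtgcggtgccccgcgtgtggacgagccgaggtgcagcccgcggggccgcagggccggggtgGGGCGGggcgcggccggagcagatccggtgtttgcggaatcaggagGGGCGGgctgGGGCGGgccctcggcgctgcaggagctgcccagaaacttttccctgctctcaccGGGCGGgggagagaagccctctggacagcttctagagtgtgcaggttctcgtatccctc
ITGA6 first start, chr2:172427086-172427385: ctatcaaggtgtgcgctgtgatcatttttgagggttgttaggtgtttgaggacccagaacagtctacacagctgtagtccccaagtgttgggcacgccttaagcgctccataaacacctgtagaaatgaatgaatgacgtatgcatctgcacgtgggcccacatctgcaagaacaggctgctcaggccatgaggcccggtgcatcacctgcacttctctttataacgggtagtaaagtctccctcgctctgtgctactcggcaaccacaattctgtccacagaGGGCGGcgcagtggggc
ITGA6 second start, chr2:172427336-172427635: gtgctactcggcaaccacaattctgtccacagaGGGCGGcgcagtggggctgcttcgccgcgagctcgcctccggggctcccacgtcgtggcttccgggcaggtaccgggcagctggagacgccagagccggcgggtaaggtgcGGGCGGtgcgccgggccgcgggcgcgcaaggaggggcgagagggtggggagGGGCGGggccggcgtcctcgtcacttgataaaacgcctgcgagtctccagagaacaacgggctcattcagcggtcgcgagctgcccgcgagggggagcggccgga

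GGGCGG occurred 4 times in the ITGA2 window, once in the first and 3 times in the second ITGA6 window, which overlap, and the windows were 72.7%, 53% and 72% G and C. It was held by 6 of the 10 windows of the 7 members in the promoter table and by 15786 of all 35116 windows. TGANTCA, the AP-1 motif, was in 1 of the 10 (7.71% of all windows) and GGAATG, the TEAD motif, in 2 (14.0%), none of them among the 3 windows printed. A match is a description of the sequence only. ITGA2 was added to this display after its values were seen.

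ITGA3, the other laminin receptor alpha chain, moved as ITGA6 did in J82 and only slightly in RT-112. J82 libraries held 628, 586 and 661 CPM in parental, 478, 409 and 472 in CD44 Low, 933, 813 and 949 in CD44 High and 798, 883 and 803 in CD44v6. CD44 Low lay below and both other derived groups above the parental range. In RT-112 the values were 327, 342 and 317, then 331, 316 and 289, then 373, 405 and 340.4, then 369, 364 and 392 CPM, with CD44 Low overlapping parental and CD44 High replicate 3 just under the highest parental library. The CD44 High to CD44 Low difference was 1.92-fold in J82 (0.94 ± 0.0906, adjusted p = 1.9e-05) and 1.22-fold in RT-112 (0.29 ± 0.0796, adjusted p = 0.0257), and the change differed between the lines by 0.68 ± 0.124 (adjusted p = 0.00117).

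Of these ITGA3 calls, the J82 contrast between CD44 High and CD44 Low held without any 1 library, and the RT-112 one was lost without CD44 Low replicate 2 or 3 or CD44 High replicate 1 or 2 (adjusted p up to 0.0897), with no filter on low counts, when only the 2 groups were fitted, or with all 24 libraries in 1 fit (up to 0.111). RT-112 CD44v6 exceeded CD44 Low 1.21-fold (adjusted p = 0.0329), a call lost when any 1 of the 6 libraries was left out (0.0555 to 0.120) and with no filter on low counts (0.0611). Against J82 parental, ITGA3 was lower in CD44 Low by -0.44 ± 0.0900 (adjusted p = 0.0130) and higher in CD44 High by 0.50 ± 0.0900 (adjusted p = 0.0104) and in CD44v6 by 0.39 ± 0.0899 (adjusted p = 0.0418). The first was lost without parental replicate 1 or 3 or CD44 Low replicate 2 (up to 0.0692), and the second without parental replicate 1 or 2 (up to 0.0651). The third held without CD44v6 replicate 3 and was lost without any of the other 5 libraries (up to 0.188), with upper-quartile scaling, with no filter or when only the 2 groups were fitted (0.0518 to 0.0896).

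ITGB4, the hemidesmosome chain, moved in opposite directions in the 2 lines. RT-112 held 268, 296 and 258 CPM in parental, 179.9, 224 and 201 in CD44 Low, 375, 441 and 293 in CD44 High and 331, 364 and 380.0 in CD44v6. CD44 Low was below all other RT-112 libraries, and CD44 High replicate 3 lay within the parental range. In J82 the gene was low, with 3.31, 1.93 and 3.03 CPM in parental, 9.54, 4.96 and 6.92 in CD44 Low, 2.96, 1.79 and 3.87 in CD44 High and 3.83, 3.86 and 3.25 in CD44v6, on 35 to 174 counts per library. There the CD44 Low libraries were the highest of the line.

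CD44 High exceeded CD44 Low in ITGB4 1.88-fold in RT-112 (0.91 ± 0.132, adjusted p = 0.00107) and CD44v6 did so 1.79-fold (0.84 ± 0.132, adjusted p = 0.00182), and neither call was lost without a library. In J82, CD44 High was 2.56-fold below CD44 Low (-1.35 ± 0.313, adjusted p = 0.0110), a call lost without CD44 Low replicate 1 (0.0570). CD44 Low exceeded parental 2.61-fold there (1.39 ± 0.314, adjusted p = 0.0231), which was lost without any 1 parental replicate or CD44 Low replicate 1 (up to 0.119). The J82 difference between CD44v6 and CD44 Low missed the threshold (95% interval of the log2 fold change -1.67 to -0.33, adjusted p = 0.0616) and passed it with the replicate number as a block (0.0408), by DESeq2 (0.0255), with all 24 libraries in 1 fit (0.00983) and without CD44 Low replicate 2 (0.0462). The change from CD44 Low to CD44 High differed between the lines by -2.24 ± 0.310 (adjusted p = 7.33e-05), and this held without any 1 library.

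ITGA2, the collagen receptor alpha chain, had the widest range of any member in J82 and no called difference in RT-112. J82 parental libraries held 29.3, 36.9 and 39.1 CPM, CD44 Low 10.2, 8.43 and 11.8, CD44 High 89.6, 92.0 and 73.6, and CD44v6 84.0, 110.5 and 91.3. The 3 levels did not overlap, and CD44 High and CD44v6 shared a range. In RT-112 the values were 233, 247 and 291 in parental, 259, 236 and 258 in CD44 Low, 249.8, 189 and 355 in CD44 High and 303, 239.6 and 166 in CD44v6, so that the highest and lowest RT-112 libraries both came from CD44 High and CD44v6.

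In J82, CD44 High exceeded CD44 Low in ITGA2 8.18-fold (3.03 ± 0.163, adjusted p = 2.23e-07) and CD44v6 exceeded it 9.18-fold (3.20 ± 0.164, adjusted p = 4.49e-07). CD44 Low was 3.42-fold below parental (-1.78 ± 0.160, adjusted p = 0.000101), and CD44 High and CD44v6 were 2.39-fold (adjusted p = 0.00108) and 2.68-fold (adjusted p = 0.00124) above it. All 5 calls held under every alternative setting and without any 1 library. In RT-112 the CD44 High to CD44 Low difference was 0.11 with an interval of -0.35 to 0.57 (adjusted p = 0.771). The change differed between lines by 2.95 ± 0.293 for that comparison (adjusted p = 1.01e-06) and by -1.75 ± 0.293 for CD44 Low against parental (adjusted p = 0.00273). Even at its highest, in CD44v6 replicate 2, ITGA2 in J82 remained below its lowest RT-112 library.

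ITGA5, the fibronectin receptor alpha chain, was one of the scarcer alpha chains. In J82 it stood at 17.8, 17.0 and 16.3 CPM in parental, 13.2, 8.84 and 12.4 in CD44 Low, 30.4, 31.1 and 23.2 in CD44 High and 25.1, 28.5 and 24.7 in CD44v6. These groups followed the same order as ITGA2, with CD44 Low lowest and CD44 High and CD44v6 highest. Over the 12 RT-112 libraries it kept between 9.91 and 13.7 CPM, with all groups overlapping.

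For ITGA5, J82 CD44 High exceeded CD44 Low 2.40-fold (1.26 ± 0.156, adjusted p = 0.000143) and CD44v6 exceeded it 2.22-fold (1.15 ± 0.156, adjusted p = 0.000425). The RT-112 intervals for the same comparisons ran from -0.35 to 0.30 and from -0.33 to 0.31, and the line difference was 1.31 ± 0.221 (adjusted p = 0.000550) and 1.15 ± 0.221 (adjusted p = 0.00231). CD44 High was also above J82 parental (0.71 ± 0.152, adjusted p = 0.0243), a call that held only without CD44 High replicate 3 among the fits that left out a library and was lost without any other of the 6 (up to 0.116). CD44 Low against J82 parental just missed the threshold (-0.55 ± 0.156, adjusted p = 0.0606), with groups that did not overlap.

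ITGB1, the shared partner of the alpha chains above, had smaller fold changes in J82 than those chains. J82 values were 659, 772 and 684 CPM in parental, 512, 529.5 and 544 in CD44 Low, 888, 992 and 893 in CD44 High and 811, 759 and 869.6 in CD44v6. CD44 Low lay below and CD44 High above every parental library, and CD44v6 overlapped parental. RT-112 libraries ranged from 871 to 1029.7 CPM with a median of 971, and all of its groups overlapped.

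CD44 High exceeded CD44 Low in ITGB1 1.70-fold in J82 (0.76 ± 0.0825, adjusted p = 5.02e-05), and CD44v6 did so by 0.58 ± 0.0823 on the log2 scale (adjusted p = 0.000579). The RT-112 differences were 0.16 (interval 0.00 to 0.31, adjusted p = 0.157) and 0.08 (interval -0.07 to 0.24, adjusted p = 0.473). The lines differed in both changes, by 0.64 ± 0.109 (adjusted p = 0.000663) and 0.49 ± 0.109 (adjusted p = 0.00833). Against J82 parental, ITGB1 was lower in CD44 Low by -0.39 ± 0.0822 (adjusted p = 0.0149), lost without parental replicate 2 or 3 or CD44 Low replicate 1 (up to 0.0882). It was higher in CD44 High by 0.37 ± 0.0821 (adjusted p = 0.0285), lost without parental replicate 1 or 3 or CD44 High replicate 1 or 2 (up to 0.172).

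ITGAV, the alpha chain that pairs with ITGB3, ITGB6 and ITGB8, gave opposite signs in the 2 lines. J82 libraries held 227, 252 and 203 CPM in parental, 225, 213 and 205 in CD44 Low, 291, 308 and 222 in CD44 High and 292, 276 and 235 in CD44v6. CD44 High replicate 3 lay among the CD44 Low libraries. RT-112 libraries held 179, 179 and 206 in parental, 259, 226 and 210.2 in CD44 Low, 159, 128 and 208 in CD44 High and 185, 143 and 108 in CD44v6, with every CD44 Low library above every other library of the line.

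The one ITGAV call was in RT-112, where CD44v6 was 1.59-fold below CD44 Low (-0.66 ± 0.183, adjusted p = 0.0286). It was lost without CD44 Low replicate 1 or 2 or CD44v6 replicate 2 or 3 (up to 0.117). CD44 High against CD44 Low was -0.45 ± 0.183 in RT-112 (adjusted p = 0.111; 0.0201 without CD44 High replicate 3) and 0.31 ± 0.134 in J82 (adjusted p = 0.138; 0.0322 without CD44 High replicate 3 and 0.0331 with the replicate block). The change itself differed between the lines, by 0.80 ± 0.242 for CD44 High against CD44 Low (adjusted p = 0.0387) and by 0.93 ± 0.243 for CD44v6 against CD44 Low (adjusted p = 0.0210). The first of these was lost in 8 of the 12 fits that left out a library (up to 0.0930) and held without J82 CD44 Low replicate 1, J82 CD44 High replicate 3, RT-112 CD44 Low replicate 3 or RT-112 CD44 High replicate 3. The second was lost without RT-112 CD44v6 replicate 3 (0.0669).

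ITGB3, the vitronectin receptor chain, was present in J82 at 15.7, 12.6 and 14.5 CPM in parental, 10.8, 6.05 and 6.40 in CD44 Low, 15.9, 16.7 and 20.7 in CD44 High and 16.4, 26.3 and 18.1 in CD44v6. CD44 Low was below every other J82 library. CD44 High exceeded it 2.22-fold (1.15 ± 0.235, adjusted p = 0.00531) and CD44v6 2.54-fold (1.34 ± 0.236, adjusted p = 0.00264), and both calls held without any 1 library. CD44 Low against parental missed the threshold (-0.86 ± 0.235, adjusted p = 0.0540) and passed it by DESeq2 (0.00992), with upper-quartile scaling (0.0435), when only the 2 groups were fitted (0.0429) and without CD44 Low replicate 1 (0.0145).

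ITGB6, an epithelial partner of ITGAV, was present in RT-112 at 142, 140.0 and 163 CPM in parental, 216, 199.9 and 199.7 in CD44 Low, 93.1, 89.2 and 171 in CD44 High and 139, 157 and 81.2 in CD44v6. CD44 Low held the 3 highest values of the line. CD44 High replicate 3 and CD44v6 replicate 3 stood apart from their groups, the former high and the latter low. CD44 High was 1.70-fold below CD44 Low (-0.76 ± 0.242, adjusted p = 0.0482), and CD44v6 missed the threshold (-0.70 ± 0.241, adjusted p = 0.0656). The CD44 High call was lost without any 1 CD44 Low replicate, CD44 High replicate 1 or CD44 High replicate 2 (up to 0.169), and was 0.00227 without CD44 High replicate 3, when the log2 fold change was -1.14. It was also lost with no filter on low counts, with the replicate block (0.0771) and when only the 2 groups were fitted.

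ITGB8, the other chain that acts on latent TGF-beta, was per kb the scarcest member detected in all libraries of both lines, at 0.772 to 3.08 CPM over the J82 libraries and 5.02 to 10.1 over those of RT-112. Its groups overlapped in all 12 comparisons within the lines, and none was called. The J82 values rest on 14 to 52 counts per library, and the interval for CD44v6 against parental in J82 ran from -0.15 to 1.77.

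ITGB3 and ITGB6, at or near 0 counts in a line, were left out when reading the direct test of the change between lines. That test called 6 of the other 8 members for CD44 High against CD44 Low, where 10.7% of the 17438 genes differed between the lines. It called the same 6 for CD44v6 against CD44 Low (background 7.52%): ITGA2, ITGA3, ITGA5, ITGAV and ITGB1, each with a larger value in J82, and ITGB4, with a larger value in RT-112. With ITGB3 and ITGB6 counted, 7 of 10 members were called for that comparison, and the added call rests on a line at or near 0 counts. For CD44 Low against parental the test called ITGA2 and ITGB4 (background 1.06%), and for CD44v6 against parental ITGA2 (1.51 ± 0.282, adjusted p = 0.0270, background 0.138%). None of the 8 was called for CD44 High against parental (background 0.241%). There ITGA2 was at adjusted p = 0.0782 by edgeR and 0.00367 by DESeq2. ITGA3, ITGA5 and ITGB1 were also at an unadjusted p under 0.05, where 1644 of all 17438 genes were. For CD44v6 against CD44 High none was called by either tool or had an unadjusted p under 0.05 (background 0.00573%, with 1647 of all genes at an unadjusted p under 0.05). The ITGA2 difference for CD44v6 against parental was lost in 7 of the 12 fits that left out a library, namely without parental replicate 1 or 2 or CD44v6 replicate 2 of J82, or without parental replicate 2 or 3 or CD44v6 replicate 2 or 3 of RT-112 (up to 0.121).

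Within RT-112, ITGAV, ITGB6 and ITGA2 varied together from library to library and ITGB4 in the opposite sense. After taking each library's difference from its group mean, so that differences between groups no longer entered, the Pearson correlation of log2 CPM over the 12 libraries was 0.84 for ITGAV with ITGB6, 0.96 for ITGAV with ITGA2 and -0.82 for ITGAV with ITGB4. CD44 High replicate 3 was the highest of its group in ITGAV, ITGB6 and ITGA2 and the lowest in ITGB4, and CD44v6 replicate 3 was the reverse in its own group. For ITGA6, computed the same way, it was 0.41 with ITGA2, 0.33 with ITGAV, -0.46 with ITGB4 and 0.08 with ITGB6. ITGB8 and ITGB1 were also positive with ITGAV (0.76 and 0.71) and negative with ITGB4 (-0.59 and -0.58). ITGA3 and ITGA5 were negative with ITGAV (-0.52 and -0.41). All values of a library share its RNA, its depth and its scaling, and the correlations are a description.

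**Figure D4:**
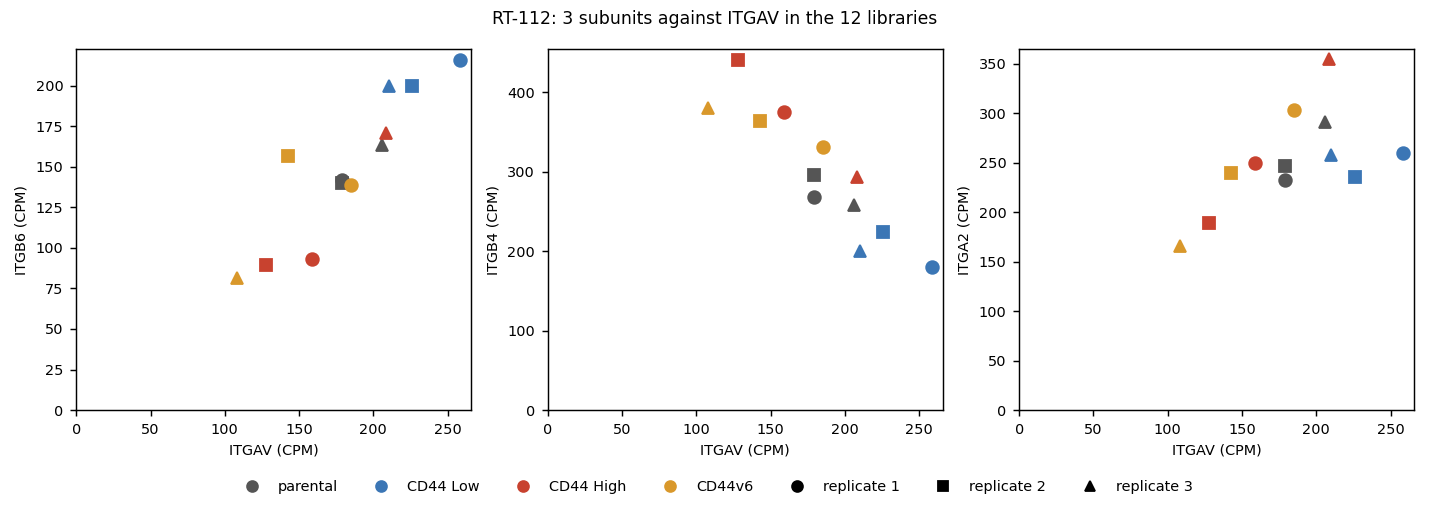
Each point is 1 of the 12 RT-112 libraries, with the CPM of ITGAV on the horizontal axis and that of ITGB6, ITGB4 or ITGA2 on the vertical axis, colour for the group and shape for the replicate number. ITGB6 rises and ITGB4 falls with ITGAV across the line, and the CD44 High and CD44v6 libraries spread along that band.

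In J82 the members formed a different set. Over its 12 libraries, groups included, ITGA6 and ITGB1 had a correlation of 0.98, which was 0.82 after removal of the group means, and ITGA2 and ITGA6 one of 0.97, which was 0.25 after removal. ITGB4 was positive with ITGB8 (0.54) and negative with the other members measured in J82, from -0.78 with ITGB1 to -0.48 with ITGB3. After removal of the group means ITGB4 was positive with ITGA3 (0.86), ITGB3 (0.65), ITGB8 (0.46) and ITGA5 (0.13). It stayed negative with ITGB1 (-0.76), ITGAV (-0.44), ITGA6 (-0.30) and ITGA2 (-0.14). ITGA6 and ITGB4, the chains of 1 receptor, were at 0.85 in RT-112 and at -0.72 in J82, and after removal of the group means at -0.46 and -0.30.

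The genes most like each member over the 24 libraries, after centring each line on its own mean, were found among 9602 genes expressed in both lines. ITGA6 was most like NT5E, which encodes the ectonucleotidase CD73 (r = 0.955; 0.974 in J82 and 0.982 in RT-112), and FANCD2 (0.963 in J82 and 0.937 in RT-112). For ITGA3 they were IL4R (0.962) and CDCP1 (0.962), for ITGA2 NFE2L3 (0.968) and PSD3 (0.958), and for ITGB1 AMIGO2 (0.954) and ARNTL2 (0.944). ITGA5 was nearest to SPOCK1 (0.921) and TINAGL1 (0.919). ITGAV was nearest to RPS6KA3 (0.927) and TM9SF3 (0.914), ITGB4 to SLC7A5P2 (0.832) and its parent gene SLC7A5 (0.827), whose reads may be shared, and ITGB8 to SMG1 (0.785) and USP24 (0.770). Within RT-112 alone, TINAGL1 was at 0.027, SPOCK1 at 0.431, NFE2L3 at 0.583 and AMIGO2 at 0.648, against 0.960 to 0.982 in J82. The rest of these genes were at 0.701 or above in RT-112. By rank correlation 2 of these 16 genes stayed among the 2 most alike, and over the 8 group means none did. The points share groups and libraries, and the values carry no test.

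Beyond the 10, 16 other integrin subunit genes were in the table. Of the 7 tested in J82, 2 rose from CD44 Low to CD44 High and none fell (median log2 fold change 0.24; -0.02 over all genes), and of the 7 tested in RT-112 none was called (median 0.10; 0.02 over all genes), at backgrounds of 15.7% and 16% of all genes called. ITGA1, another collagen receptor alpha chain, held 18.9, 16.1 and 18.9 CPM in J82 CD44 Low and 37.5, 31.0 and 30.2 in CD44 High, a difference of 0.83 ± 0.125 (adjusted p = 0.000612), and at most 2.96 CPM in RT-112. ITGB5 lay between 139 and 188 CPM in J82 and between 132 and 178 in RT-112. It was 171 to 188 CPM in J82 CD44 High and 139 to 157 in CD44 Low, a difference that missed the threshold (0.24 ± 0.0825, adjusted p = 0.0703), but the change differed between the lines by 0.41 ± 0.124 (adjusted p = 0.0362). ITGAE, the alpha chain of an E-cadherin receptor, reached at most 7.44 CPM.

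The list of integrin ligands held matrix genes and also TGFB1 and TGFB3, which are on the list of latent TGF-beta activation too. Of the 24 ligand genes tested in J82, 8 rose and 5 fell from CD44 Low to CD44 High. That was 54.2% called, where 15.7% of all genes were (median log2 fold change 0.14, and -0.02 over all genes). Of 23 in RT-112, 9 rose and 1 fell (43.5% called, where 16% of all genes were; median 0.30, and 0.02 over all genes). COL4A2, a basement membrane collagen chain, rose 1.49 ± 0.110 on the log2 scale in J82 (278 against 96.3 CPM; adjusted p = 1.78e-06). In RT-112, among ligand genes at an average log2 CPM of at least 3, the largest called changes were those of THBS1, thrombospondin (1672 against 620.2 CPM; 1.46 ± 0.244, adjusted p = 0.00226), and FN1, fibronectin (531 against 213 CPM; 1.35 ± 0.229, adjusted p = 0.00250).

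FN1 also stood on the list of mesenchymal markers, whose summed level differed between CD44 Low and CD44 High. Over its 4 genes (VIM, ZEB1, CDH2, FN1) the sum was 885 to 1097 CPM in J82 CD44 Low and 1237 to 1405 in CD44 High, with parental at 987 to 1119, overlapping CD44 Low. In RT-112 it was 205 to 241 in CD44 Low and 406 to 769.7 in CD44 High, with parental at 306 to 374. There VIM, ZEB1 and CDH2 were each at or under 7.80 CPM, so that FN1 made up nearly the whole sum, and the markers with a mean of at least 1 CPM numbered 4 in CD44 Low and 2 in CD44 High. The 12 epithelial markers summed to 6420 to 7598 CPM in J82 CD44 Low against 8994 to 10809 in CD44 High. In J82 most of that sum was KRT7, KRT8 and KRT18, with medians of 2331, 4575 and 1726 CPM over the line. EPCAM and CDH1 reached at most 3.31 and 6.57 CPM there. The epithelial markers with a mean of at least 1 CPM numbered 7 in J82 CD44 Low and 6 in CD44 High. In RT-112 the 12 markers summed to 13483 to 15902 CPM in CD44 Low against 11079 to 12372 in CD44 High. The 4 leukocyte markers, almost all CD68, summed to 77.4 to 125 CPM in J82 CD44 Low and 143 to 223 in CD44 High, and to 10.5 to 11.8 and 7.002 to 13.3 in the same RT-112 groups. Their part in the integrin differences was not tested. In bulk RNA, fewer cells of a kind and less RNA per cell cannot be told apart.

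Of the intracellular adhesion complex, 18.2% of the genes tested were called in J82 and 21.7% in RT-112, against backgrounds of 15.7% and 16%. Of its 22 genes tested in J82, 4 were higher in CD44 High and none lower (median 0.17), among them TLN2, a talin that activates integrins (0.79 ± 0.133, adjusted p = 0.00146), and BCAR1, the scaffold p130Cas (0.58 ± 0.120, adjusted p = 0.00601). Of 23 in RT-112, 4 were higher and 1 lower (median 0.19): the kindlin FERMT1 rose (117 against 71.4 CPM; 0.75 ± 0.0811, adjusted p = 0.000161) and its paralogue FERMT2 fell (14.2 against 27.9 CPM; -0.94 ± 0.180, adjusted p = 0.00452). At the same backgrounds, hemidesmosome and tetraspanin genes gave 4 of 8 higher in J82 and 1 of 8 in RT-112. In J82 the smallest of the 4 changes was that of CD151, a tetraspanin partner of laminin receptors (0.35 ± 0.0810, adjusted p = 0.0115). TSPAN4 rose by 0.50 ± 0.114 (adjusted p = 0.00986). CD82 rose by 3.02 ± 0.208 (13.7 against 1.63 CPM, adjusted p = 1.12e-06). COL17A1, at only 1.83 against 0.0776 CPM, rose by 4.48 ± 0.866 (adjusted p = 0.00371). Genes of latent TGF-beta activation gave 3 higher and 3 lower of 11 in J82, with the receptor TGFBR2 at 1.62 ± 0.173 (adjusted p = 4.43e-05) and TGFBR1 at -0.56 ± 0.105 (adjusted p = 0.00312), and 3 higher of 11 in RT-112, with TGFB1 at 0.52 ± 0.130 (adjusted p = 0.0175). No gene of these lists was called between CD44v6 and CD44 High in either line.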

How the data were processed

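Per the series text, 3 biological replicates of each of 8 cell lines were sequenced; whether these are separate cultures is not stated further, so p-values measure the spread between these libraries. The authors deposited a gene table whose values are whole-number counts per gene symbol. Per the submitters' processing notes, HISAT2, StringTie and GRCh37 were used; their versions and roles, the annotation and whether counting used strand are not given in the sources used here, so reads of a gene and an antisense partner cannot be told apart. Groups came from the labels.

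Each line's 12 libraries were fitted in edgeR 4.0.16 (R 4.3.3; filterByExpr, trimmed-mean scaling, quasi-likelihood F-test, Benjamini-Hochberg adjustment over 15951 genes in J82 and 15645 in RT-112). Differences between lines came from 1 fit of 24 libraries (17438 genes). SEs are the log2 fold change over the root of F. CPM used 1 scaling over the 24 libraries, log2 CPM a prior count of 2, and lengths GENCODE 29. Libraries held 16752825 to 24419670 counts, and the 24 replicate pairs differed by more than sampling noise. Alternatives were other scalings (median of ratios, upper quartile), filters (none, a mean of at least 50 counts), DESeq2 1.42.0, other sets of libraries, a replicate block and leaving out each library. The script was tested on simulated data. Members, lists and motifs were chosen with earlier results of these data known. Named list genes are the 2 largest called changes per list of average log2 CPM of at least 3, given for CD44 High against CD44 Low and CD44 Low against parental; the text gives a part of them, and 1 is not reported here.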

Additional observations from a re-analysis of the deposited data

Results flagged for a closer look

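Values below are J82 minus RT-112 on the log2 scale, tested in the fit of all 24 libraries. Listed are members whose change differed between the lines, ITGB3 and ITGB6 aside. For CD44 Low against parental they were ITGA2 (-1.75, adjusted p = 0.00273) and ITGB4 (1.81, adjusted p = 0.00352), and for CD44v6 against parental ITGA2 (1.51, adjusted p = 0.0270).

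For CD44 High against CD44 Low the differences were 2.95 for ITGA2, 0.68 for ITGA3, 1.31 for ITGA5, 0.80 for ITGAV, 0.64 for ITGB1 and -2.24 for ITGB4. For CD44v6 against CD44 Low they were 3.27 for ITGA2, 0.54 for ITGA3, 1.15 for ITGA5, 0.93 for ITGAV, 0.49 for ITGB1 and -1.86 for ITGB4. Both comparisons share the CD44 Low libraries. ITGB4 in J82 rests on 35 to 174 counts per library.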

How the results depend on the processing

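ITGB3 and ITGB6 were left out of the tests of a change between lines. Of the 166 member differences that remain, 59 were called. Of these, 54 kept their call under every other setting and 42 also without any 1 library. Of the 107 not called, 14 passed under some setting and 8 without some library. No call reversed its sign. The member counts below are given without the share of all genes called in the same fit.

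Members called for J82 CD44v6 against parental numbered 2, and 1 with upper-quartile scaling, with no filter or with only the groups compared, and 4 with a mean of at least 50 counts, DESeq2 or all 24 libraries in 1 fit. For RT-112, the count for CD44 High against CD44 Low went from 4 to 2 with no filter or only the groups compared. CD44 High against parental went from 1 to 0 with only the groups compared. CD44 Low against parental went from 1 to 2 by DESeq2 and to 3 with only the groups compared. CD44v6 against parental went from 0 to 1 by DESeq2 or with all 24 libraries, and to 2 with only the groups compared. The line difference for CD44 High against parental went from 0 to 1 with upper-quartile scaling or DESeq2. The cause of these changes was not tested. The fits of only the groups compared rest on fewer libraries.

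Leaving out 1 library in turn gave 1 to 5 members for J82 CD44 High against parental, 2 to 5 for J82 CD44 Low against parental and 1 to 3 for J82 CD44v6 against parental. In RT-112 it gave 2 to 5 for CD44 High against CD44 Low, 2 to 3 for CD44v6 against CD44 Low and 0 to 2 for CD44 High against parental. The line differences for CD44 High and for CD44v6 against parental each gave 0 to 1.

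Replicate numbers recur across groups, but the labels do not say that they mark a shared batch. Correlations of same-numbered libraries passed 0.1 in all 3 pairs for J82 CD44v6 against CD44 High alone (0.113, 0.110 and 0.252) of 13 comparisons, and there 0 members were called with or without the block. With the replicate block, J82 CD44 High against CD44 Low gave 8 members rather than 7, J82 CD44v6 against CD44 Low 7 rather than 6, and RT-112 CD44 High against CD44 Low 3 rather than 4; the other counts of members were as without it.

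Scaling by raw totals moved none of the 80 group levels by over 1 SD; the longest coding transcript moved 50 of the 80 levels per kb by more than that. Depth limits ITGB8 and ITGB4 in J82 and ITGB3 in RT-112.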
